A study of Mus musculus with 6 samples.

Results

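The genes described here are 42 members of the BMP and TGF-beta pathway, picked by symbol as a list of ligands, receptors, Smad proteins, Id genes and antagonists. All 42 were found among the 24956 rows of the deposited expression table. The table holds RNA-seq of mouse intestinal organoids, which are self-organising cultures of the gut epithelium, grown in low glutamine medium (3 libraries) or in control medium (3 libraries). Every organoid in both groups carried the Apc Min genotype, a truncating allele of the scaffold that holds beta-catenin in check, so no library is wild type for Apc. The labels call the material primary cells kept in vitro. Not given in the sources used here were the glutamine concentration, how long the treatment lasted, the rest of the medium, the gut segment and how many animals were used. The 3 libraries of each medium are described as biological replicates, but nothing says that they came from separate animals or cultures, so p-values measure only the spread between these libraries, which may be technical.

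The groups differed in more than the medium. Xist, transcribed from the inactive X chromosome of female cells, averaged 0.0286 RPKM in low glutamine and 87.3 RPKM in control, while the Y-linked Eif2s3y averaged 27.7 RPKM in low glutamine and was listed at 0 in control. The medium and the sex of the source therefore cannot be told apart for any gene below, although none of the 42 members lies on X or Y. Depth, estimated from genes with a single exon, was 28.3 to 34.0 M reads in low glutamine and 24.4 to 35.4 M reads in control (M, mega). RPKM values are reads scaled by transcript length and by the mapped reads of a library, so levels can be compared between genes.

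BMP and TGF-beta ligands bind paired type I and type II receptor kinases. BMP receptors phosphorylate Smad1, Smad5 and Smad9, TGF-beta and activin receptors phosphorylate Smad2 and Smad3, and both sets enter the nucleus with Smad4. In the intestine BMP activity is known to be strong along the villus, where it goes with differentiation, and to be held low at the crypt base by secreted antagonists such as Gremlin and Noggin, which come largely from the mesenchyme. TGF-beta is known to restrain growth of this epithelium.

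Promoters are shown for the 5 called members with the largest changes among those with an entry in the RefSeq promoter table (build GRCm38.p6, the mm10 assembly), so that the regulatory sequence stands beside the values. Bmp2, Bambi, Bmp7 and Bmp3, which changed more than Tgfbr2, Smad3 and Acvr2a, have no entry there. Of these genes, Smad5, Id2, Tgfbr2 and Smad3 rose and Acvr2a fell in low glutamine, as described further on. Each run holds 250 bases before and 50 bases from the annotated start, written 5′ to 3′, and for Smad5 it is 1 of 3 annotated starts. Capitals mark CAGAC or its reverse complement GTCTG, the short Smad-binding letters, and GGCGCC, a GC-rich element that BMP-type Smads are known to bind.
Smad5, chr13:56702760-56703059, plus strand: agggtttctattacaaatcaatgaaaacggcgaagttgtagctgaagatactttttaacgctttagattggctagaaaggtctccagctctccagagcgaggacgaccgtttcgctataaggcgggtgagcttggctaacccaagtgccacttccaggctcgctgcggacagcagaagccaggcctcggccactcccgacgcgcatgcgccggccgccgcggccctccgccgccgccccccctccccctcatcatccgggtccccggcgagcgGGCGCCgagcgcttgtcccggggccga
Id2, chr12:25096043-25096342, minus strand: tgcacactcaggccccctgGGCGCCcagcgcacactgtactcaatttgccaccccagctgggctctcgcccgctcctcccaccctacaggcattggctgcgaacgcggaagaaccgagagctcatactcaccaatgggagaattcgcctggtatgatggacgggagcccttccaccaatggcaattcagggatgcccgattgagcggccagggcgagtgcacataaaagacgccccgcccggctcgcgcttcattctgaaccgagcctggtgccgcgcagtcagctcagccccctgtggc
Tgfbr2, chr9:116175314-116175613, minus strand: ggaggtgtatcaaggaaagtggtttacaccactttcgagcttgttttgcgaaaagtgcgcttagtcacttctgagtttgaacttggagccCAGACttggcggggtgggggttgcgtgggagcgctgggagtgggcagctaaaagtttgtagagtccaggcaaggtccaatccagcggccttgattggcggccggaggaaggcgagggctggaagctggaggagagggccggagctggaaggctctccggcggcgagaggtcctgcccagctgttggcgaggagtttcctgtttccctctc
Smad3, chr9:63757945-63758244, minus strand: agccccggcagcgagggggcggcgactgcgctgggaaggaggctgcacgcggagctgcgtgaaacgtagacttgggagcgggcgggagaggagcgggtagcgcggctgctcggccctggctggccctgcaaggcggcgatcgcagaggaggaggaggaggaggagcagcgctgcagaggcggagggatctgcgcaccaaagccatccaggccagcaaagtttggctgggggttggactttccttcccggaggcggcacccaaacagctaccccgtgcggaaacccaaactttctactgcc
Acvr2a, chr2:48813859-48814158, plus strand: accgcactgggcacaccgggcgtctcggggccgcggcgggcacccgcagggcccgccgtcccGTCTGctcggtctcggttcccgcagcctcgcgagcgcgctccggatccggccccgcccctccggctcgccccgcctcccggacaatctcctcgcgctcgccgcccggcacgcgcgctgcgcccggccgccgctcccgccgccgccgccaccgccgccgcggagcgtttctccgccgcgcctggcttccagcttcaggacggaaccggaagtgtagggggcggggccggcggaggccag

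GGCGCC, which reads the same on both strands, occurred once each in the Smad5 run, beginning at base 24 counted from the start, and in the Id2 run, beginning at -231. CAGAC occurred once in the Tgfbr2 run, and its reverse complement once in the Acvr2a run. Neither was in the Smad3 run. No run held the palindrome GTCTAGAC. Among 27025 genes with an entry, taking 1 start per gene and both strands, 49.7% held CAGAC and 12.0% held GGCGCC, and the motifs share no letters by overlap in the 5 runs. Of the 30 members with an entry, 14 held CAGAC and 11 held GGCGCC. These are counts of letters and not measured binding.

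In low glutamine organoids the ligands Bmp7 and Bmp3, the type II receptors Tgfbr2 and Bmpr2, the signal transducers Smad5 and Smad3 and the target genes Id2 and Id1 were higher than in control. The other Id genes, below 1 RPKM on average, did not rise. Id3 overlapped between the groups, and Id4 was lower, as were the inhibitory Smad6 and Smad7, also below 1 RPKM. Bmp2 was lower by more than any other tested member, and the receptors Acvr2a and Bmpr1a were lower as well. The two-sided test was limma on log2(RPKM + 1), run on the 11082 genes whose mean over the 6 libraries reached 1 RPKM. Adjustment was by Benjamini-Hochberg, and an adjusted p under 0.05 counted as a pass. Fold changes are low glutamine over control on that log2(RPKM + 1) scale, which understates changes of low genes. Of the members, 23 reached the limit and were tested. Among them, 1, Bambi, reached it only through the low glutamine group, where it is high, so its pass is a description only. Bambi is held in the counts of members that passed, were higher or did not overlap. Of the 23, 18 passed the test (78.3%), against 66.4% of all tested genes, a share near that background. By direction, 15 were higher (65.2%), against 36.1% of all tested genes, and 3 were lower (13.0%), against 30.3%. The values of the groups did not overlap for those same 18 members, against 70.2% of all tested genes (38.9% higher and 31.3% lower). Their median log2 fold change was 0.26, against 0.03 over all tested genes.

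The split depended on the scaling of the libraries. With rescaling to a common sum 18 members were higher and 2 lower, and with median-of-ratios scaling 13 were higher and 5 lower. Over all genes, 54.4% of the calls were higher with RPKM as deposited, 69.1% with the common sum and 42.1% with median-of-ratios scaling. With the common sum the median over all genes was 0.14 on the log2 scale, so member changes of that size are relative to the scaling. The plot of values by library and the plot of changes by role show the tested members.

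**Figure D1:**
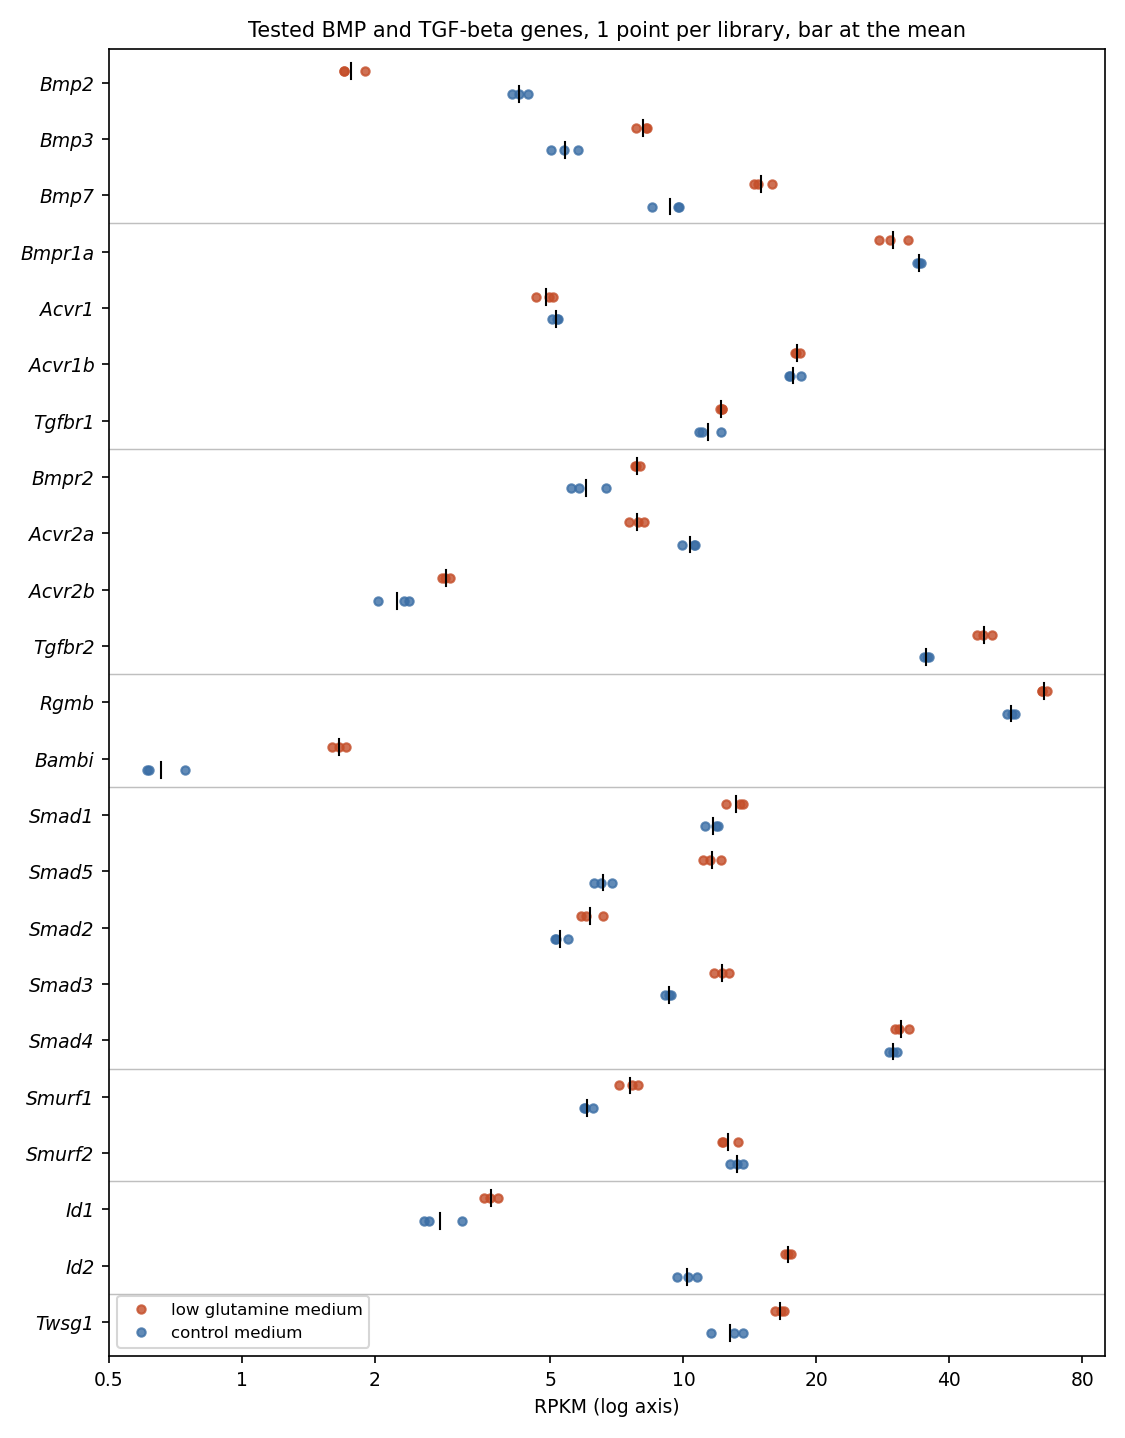
RPKM (log axis) of the 23 tested members, with 1 point per library, low glutamine above control for each gene and a black bar at the mean (n = 3 per group); grey lines separate the roles. Rgmb was the highest member in both groups (65.5 RPKM in low glutamine and 55.3 RPKM in control), and the groups did not overlap for 18 of the genes, among them Bmp2, Smad5 and Id2.

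**Figure D2:**
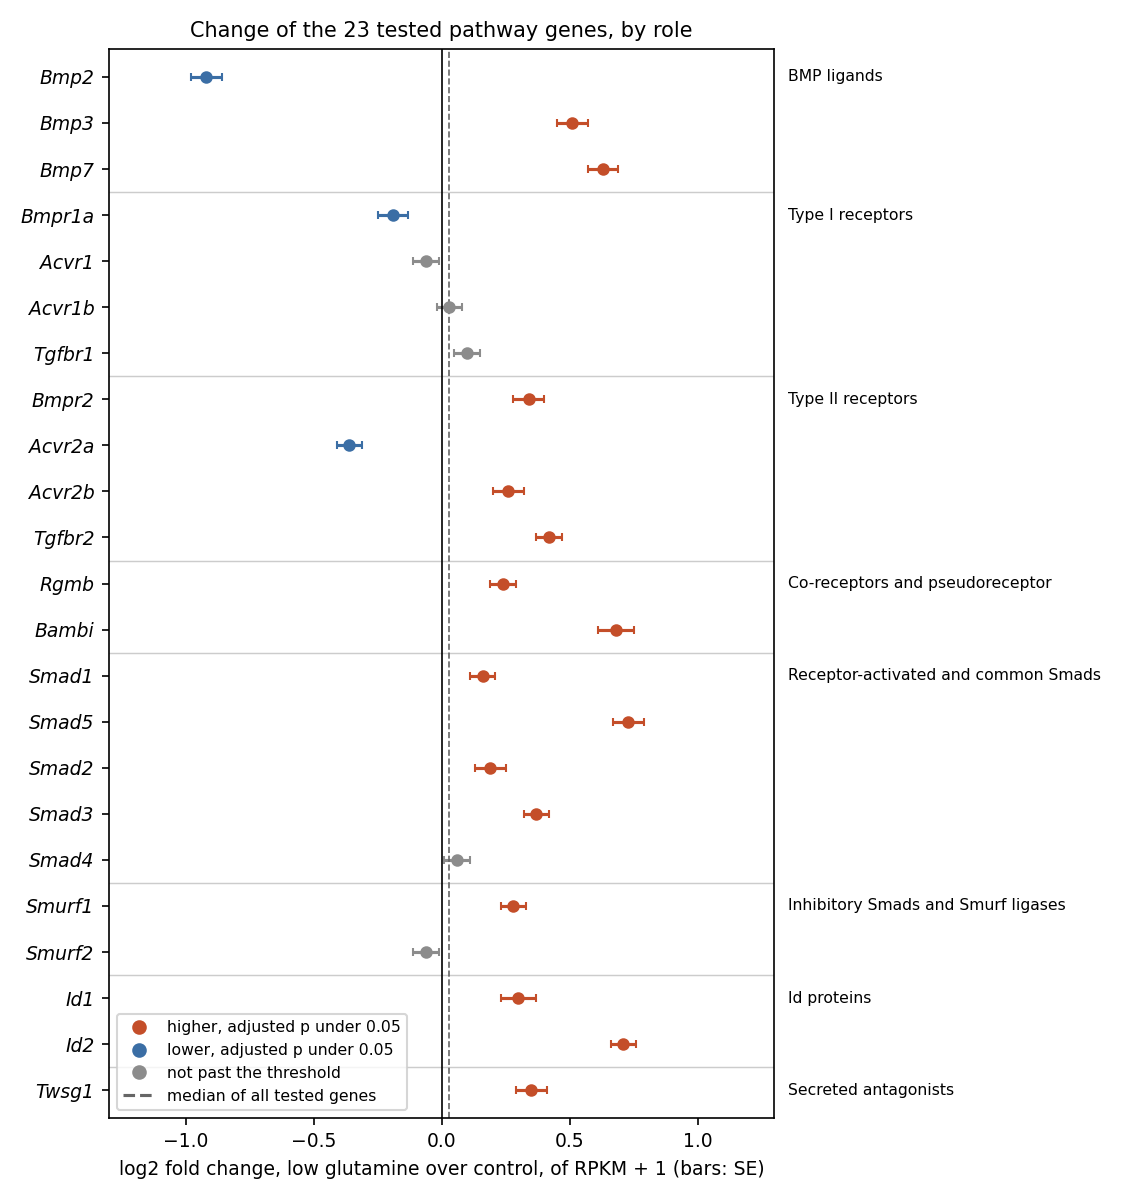
Log2 fold change of RPKM + 1, low glutamine over control, with its SE from limma for the 23 tested members ordered by role; colour gives the call at an adjusted p under 0.05 and the dashed line the median of all tested genes, 0.03. The points run from -0.92 for Bmp2 to 0.73 for Smad5, and of the type I receptors Acvr1, Acvr1b and Tgfbr1 lie within 0.10 of 0 and Bmpr1a at -0.19.

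Among the BMP ligands, the mix in low glutamine held less Bmp2 and more Bmp7 and Bmp3 than in control. Bmp2 (chromosome 2, 133552159 to 133562896 of GRCm38.p6), a ligand of the classical BMP group, stood at 1.71, 1.90 and 1.71 RPKM in low glutamine, against 4.09, 4.44 and 4.24 RPKM in control. All 3 low glutamine values lay well below the lowest control value. The log2 fold change was -0.92 ± 0.06 (SE, limma adjusted p = 4.0e-08), and the level was 0.416 of control on the linear scale.

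Bmp7 (chromosome 2, 172868012 to 172940321), also a classical BMP, was the most abundant ligand in both groups. It measured 15.9, 14.8 and 14.4 RPKM in low glutamine, against 9.73, 9.78 and 8.50 RPKM in control, with no overlap. It rose by 0.63 ± 0.06 on the log2 scale (limma adjusted p = 2.3e-06). Bmp3 (chromosome 5, 98854415 to 98884053), a divergent family member known to oppose other BMPs in bone, stood at 7.80, 8.22 and 8.26 RPKM in low glutamine and at 5.77, 5.37 and 5.0 RPKM in control. Here too the groups did not overlap, and the rise was 0.51 ± 0.06 (limma adjusted p = 7.6e-06).

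As a description with no test of its own, the summed BMP ligand level was 25.5 ± 0.471 RPKM in low glutamine and 19.1 ± 1.07 RPKM in control (SD, n = 3 each). Bmp2 made up 6.95% of that sum in low glutamine and 22.3% in control, and Bmp7 made up 58.9% in low glutamine and 48.8% in control. The ratio of Bmp7 to Bmp2 within a library, which no rescaling of that library changes, ran from 7.77 to 9.31 in low glutamine and from 2.01 to 2.38 in control. In bulk RNA, fewer cells of a type and less RNA per cell cannot be told apart, and this holds for every value here.

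**Figure D3:**
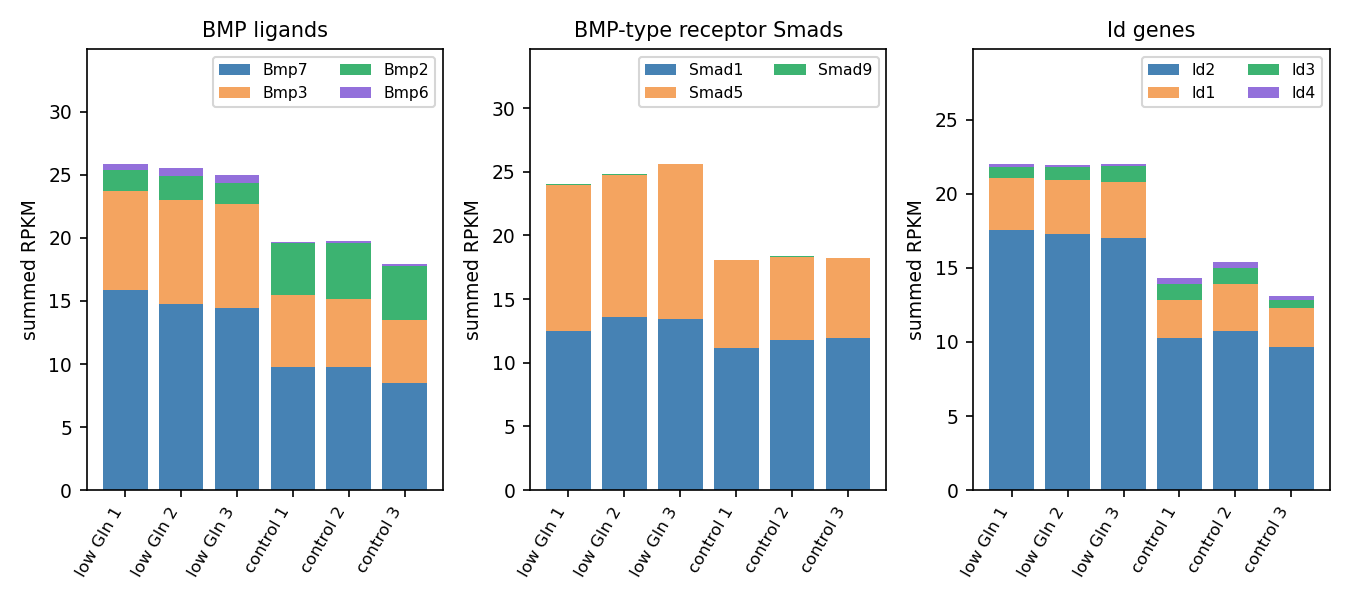
Summed RPKM (linear axis from 0) of the BMP ligands, the BMP-type receptor Smads and the Id genes, 1 stacked bar per library, low glutamine left of control. Bmp2 takes 6.58% to 7.44% of the ligand sum in low glutamine and 20.7% to 23.7% in control, and Smad5 takes 44.7% to 47.8% of the Smad1, Smad5 and Smad9 sum in low glutamine and 34.5% to 38.1% in control. Bmp4 and Bmp5, at or near 0, are not drawn.

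The remaining BMP ligands were low. Bmp6, a BMP of the same subgroup as Bmp7, stood at 0.510, 0.659 and 0.567 RPKM in low glutamine and at 0.128, 0.170 and 0.150 RPKM in control, with no overlap. It fell below the 1 RPKM limit. With the limit at 0.3 RPKM, where 65.6% of 12563 genes passed, its adjusted p was 1.0e-04 by limma, but its control mean of 0.149 RPKM lies below that limit too, so it entered only through low glutamine, where it is high. Exons of Bmp6 share 224 bases with Txndc5 on the other strand, itself at 65.6 RPKM in low glutamine and 54.9 RPKM in control. Whether counting used strand is not stated, so reads of the pair cannot be told apart. Bmp4 reached 0.0285 and 0.0344 RPKM in 2 low glutamine libraries, which is 2 reads each at an annotated length of 2064 bases, and was listed at 0 in the other 4 libraries. Bmp5 was listed at 0 in all 6.

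The TGF-beta and activin ligands were all below 1 RPKM, so none entered the main test. Tgfb1, the major TGF-beta isoform, was the most abundant of them. It stood at 1.0, 1.01 and 0.830 RPKM in low glutamine and at 0.545, 0.494 and 0.377 RPKM in control. At an annotated transcript length of 2175 bases these are 74, 72 and 51 reads in low glutamine and 37, 38 and 20 reads in control, whole numbers in every library within a tolerance of 0.05. The groups did not overlap, and with the limit at 0.3 RPKM its limma adjusted p was 4.7e-04.

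Tgfb2 averaged 0.0987 ± 0.00756 RPKM in low glutamine and 0.0263 ± 0.0135 RPKM in control (SD, n = 3 each). Tgfb3 rested on 11 reads over the low glutamine libraries and 4 over the control libraries. Inhba, the subunit of activin A, rested on 17 reads in low glutamine and 1 in control, and Inhbb, the subunit of activin B, on 5 in each. Counts this small carry counting error that is large beside their size, and intervals were not computed.

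The type I receptors, the kinases that phosphorylate Smads, changed little. Bmpr1a (chromosome 14, 34411061 to 34503336), the main BMP type I receptor of the gut epithelium, stood at 29.4, 27.8 and 32.3 RPKM in low glutamine and at 34.2, 33.8 and 34.5 RPKM in control. The low glutamine values were the more scattered, and the highest of them stayed below the control range. The change of -0.19 ± 0.06 passed (limma adjusted p = 0.013), but not without low glutamine replicate 2 (-0.14, adjusted p = 0.062), with the common sum (-0.07) or after quantile normalization (-0.10), and its adjusted p reached 0.35 over the alternatives.

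Acvr1b, an activin type I receptor, stood at 17.9, 17.9 and 18.4 RPKM in low glutamine and at 17.3, 18.5 and 17.4 RPKM in control. Tgfbr1, the TGF-beta type I receptor, stood at 12.3, 12.1 and 12.2 RPKM in low glutamine and at 12.1, 11.0 and 10.9 RPKM in control. Values of the groups overlapped for both genes, as they did for Acvr1, another BMP type I receptor, with means of 4.89 RPKM in low glutamine and 5.14 RPKM in control. These 3 did not pass (limma adjusted p = 0.67, 0.14 and 0.34). With the common sum Acvr1b and Tgfbr1 passed as higher (0.15 and 0.21), and with median-of-ratios scaling Acvr1 passed as lower (-0.14). Bmpr1b was listed at 0 in control and averaged 0.0102 RPKM in low glutamine.

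The type II receptors, which bind ligand and activate the type I partner, moved in both directions. Tgfbr2 (chromosome 9, 116087695 to 116175363), which serves TGF-beta alone, stood at 47.7, 46.2 and 50.0 RPKM in low glutamine and at 35.9, 35.6 and 35.0 RPKM in control. The groups were far apart, and it rose by 0.42 ± 0.05 (limma adjusted p = 1.6e-05). It made up 72.0% of the type II receptor sum in low glutamine and 65.6% in control.

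Acvr2a (chromosome 2, 48814109 to 48903264), a receptor for activins and BMPs, fell to 7.86 ± 0.310 RPKM in low glutamine, against 10.4 ± 0.364 RPKM in control (SD, n = 3 each; -0.36 ± 0.05, limma adjusted p = 7.2e-05). It shares 446 exon bases with Orc4 on the opposite strand, which averaged 6.07 RPKM in low glutamine and 5.41 RPKM in control. Its paralog Acvr2b rose (2.90 ± 0.0628 RPKM in low glutamine and 2.25 ± 0.187 RPKM in control, limma adjusted p = 0.0027), though not after quantile normalization (0.09). Bmpr2, the BMP type II receptor, rose to 7.85 ± 0.119 RPKM, against 6.01 ± 0.576 RPKM in control (0.34 ± 0.06, adjusted p = 4.5e-04).

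Of the co-receptors, Rgmb (chromosome 17, 15804661 to 15831246), a membrane-anchored BMP co-receptor also called Dragon, was the most abundant of all 42 members. It stood at 65.0, 65.0 and 66.6 RPKM in low glutamine and at 56.4, 55.4 and 54.1 RPKM in control. The groups did not overlap, and the rise was 0.24 ± 0.05 (limma adjusted p = 0.0012). Bambi (chromosome 18, 3507011 to 3516404), a pseudoreceptor that lacks the kinase and blocks signalling, stood at 1.72, 1.66 and 1.60 RPKM in low glutamine and at 0.616, 0.745 and 0.609 RPKM in control. Every low glutamine value was above every control value, and it differed by 0.68 ± 0.07 (limma adjusted p = 2.0e-06). Bambi met the 1 RPKM limit only through low glutamine, where it is high, so both are descriptions only. Tgfbr3, the co-receptor betaglycan, had 116 reads in low glutamine and 98 in control over the 3 libraries each, with overlapping values of 0.165 to 0.279 RPKM in low glutamine and 0.161 to 0.195 RPKM in control.

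The receptor-activated Smads rose in both branches, and the shared partner Smad4 did not pass the test. Smad5 (chromosome 13, 56703010 to 56742378), a BMP-type Smad whose promoter is printed above, stood at 11.5, 11.1 and 12.2 RPKM in low glutamine and at 6.89, 6.52 and 6.29 RPKM in control. The groups were well separated, and Smad5 showed the largest rise of the tested members on the log2(RPKM + 1) scale, 0.73 ± 0.06 (limma adjusted p = 1.8e-07). As a ratio of the group means, Bambi differed more (2.53, against 1.76 for Smad5). Smad1, its close relative, stood at 12.5, 13.6 and 13.4 RPKM in low glutamine and at 11.2, 11.8 and 12.0 RPKM in control. Its change of 0.16 ± 0.05 passed (adjusted p = 0.019), but not without low glutamine replicate 2 (adjusted p = 0.070), without control replicate 1 (adjusted p = 0.083) or with median-of-ratios scaling (0.08), and its adjusted p reached 0.24 over the alternatives.

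Smad9, the third BMP-type Smad, had 47 reads over the low glutamine libraries and 11 over the control libraries, or 0.0907 RPKM in low glutamine and 0.0215 RPKM in control on average. Of the TGF-beta type, Smad3 (chromosome 9, 63646766 to 63757994) stood at 12.3, 11.7 and 12.7 RPKM in low glutamine and at 9.39, 9.10 and 9.28 RPKM in control. It rose by 0.37 ± 0.05 with no overlap between groups (limma adjusted p = 4.5e-05). Smad2 averaged 6.15 ± 0.367 RPKM in low glutamine and 5.25 ± 0.205 RPKM in control (0.19 ± 0.06, adjusted p = 0.010), and did not pass with median-of-ratios scaling (0.11) or quantile normalization (0.12).

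Smad4, the partner of both branches, stood at 30.8, 30.1 and 32.5 RPKM in low glutamine and at 30.5, 29.8 and 29.3 RPKM in control. The ranges overlapped (0.06 ± 0.05, limma adjusted p = 0.33). It passed as higher with the common sum (0.18) and quantile normalization (0.15), and lay below control with median-of-ratios scaling (-0.03). As sums with no test, Smad1, Smad5 and Smad9 came to 24.8 ± 0.787 RPKM in low glutamine and 18.2 ± 0.142 RPKM in control, and Smad2 and Smad3 to 18.4 ± 0.817 RPKM in low glutamine and 14.5 ± 0.264 RPKM in control (SD, n = 3 each).

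The inhibitory arm was split. The inhibitory Smads are themselves induced by the pathway and feed back on the receptors. Smad7 stood at 0.562, 0.520 and 0.446 RPKM in low glutamine and at 0.707, 0.732 and 0.765 RPKM in control, and was thus lower in each low glutamine library. It lay below the 1 RPKM limit, and with the limit at 0.3 RPKM its adjusted p was 0.013 by limma. Smad6, which acts chiefly on the BMP branch, had 14, 17 and 13 reads in low glutamine and 19, 24 and 21 reads in control, or 0.156 RPKM in low glutamine and 0.241 RPKM in control on average.

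Smurf1 and Smurf2 are ubiquitin ligases that mark Smads and receptors for degradation. Smurf1 rose to 7.58 ± 0.385 RPKM in low glutamine, against 6.06 ± 0.150 RPKM in control (SD, n = 3 each; 0.28 ± 0.05, limma adjusted p = 6.3e-04). Smurf2 stood at 12.2, 12.3 and 13.3 RPKM in low glutamine and at 13.2, 12.7 and 13.6 RPKM in control. These ranges overlapped (-0.06 ± 0.05, adjusted p = 0.32), though Smurf2 passed as lower with median-of-ratios scaling (-0.15) and lay above control with the common sum (0.06).

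The Id genes encode helix-loop-helix proteins without a DNA-binding region, and Id1, Id2 and Id3 are classical BMP targets. They did not move together. Id2 (chromosome 12, 25093799 to 25096092), whose promoter is printed above, stood at 17.5, 17.3 and 17.0 RPKM in low glutamine and at 10.2, 10.7 and 9.66 RPKM in control. It rose by 0.71 ± 0.05 with a wide gap between groups (limma adjusted p = 1.7e-07). It made up 78.5% of the summed Id level in low glutamine and 71.7% in control.

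Id1 rose to 3.67 ± 0.136 RPKM in low glutamine, against 2.80 ± 0.309 RPKM in control (SD, n = 3 each; 0.30 ± 0.07, limma adjusted p = 0.0019). Id3 stood at 0.740, 0.860 and 1.08 RPKM in low glutamine and at 1.04, 1.13 and 0.516 RPKM in control. Its values were interleaved, with control replicate 3 the lowest of the 6, and the adjusted p was 0.95 with the limit at 0.3 RPKM. Id4 averaged 0.175 ± 0.0476 RPKM in low glutamine and 0.353 ± 0.0547 RPKM in control, and the highest low glutamine value, 0.230, lay below the lowest control value, 0.296.

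Secreted antagonists were nearly silent apart from Twsg1. Twsg1 (chromosome 17, 65923065 to 65951187), a BMP-binding protein that can promote or oppose signalling together with Chordin, stood at 16.7, 16.1 and 16.9 RPKM in low glutamine and at 13.7, 13.0 and 11.5 RPKM in control. The groups did not overlap, and it rose by 0.35 ± 0.06 (limma adjusted p = 3.1e-04). Noggin (Nog) and Gremlin (Grem1) were listed at 0 in all 6 libraries. Chordin (Chrd) measured 0.189, 0.172 and 0.160 RPKM in low glutamine and 0.0366, 0.0528 and 0.0234 RPKM in control. Follistatin (Fst), which binds activins, measured 0.154, 0.180 and 0.161 RPKM in low glutamine and 0.0672, 0.0395 and 0 RPKM in control. Both were higher in every low glutamine library than in any control library, at levels near 0. Chrd shares 239 exon bases with Thpo on the other strand, which averaged 0.106 RPKM in low glutamine and 0.278 RPKM in control.

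**Figure D4:**
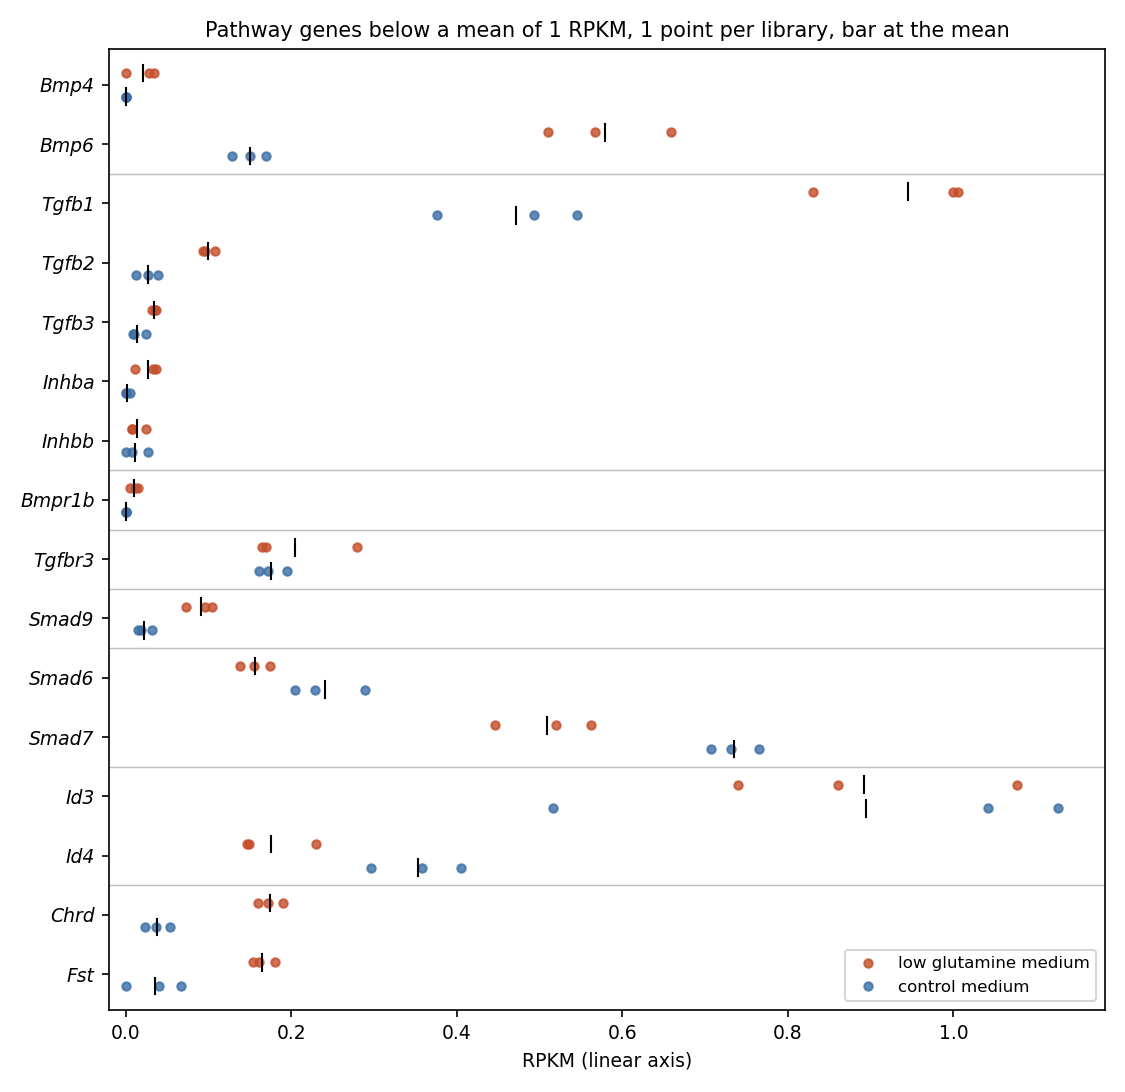
RPKM (linear axis) of the 16 members below a mean of 1 RPKM and above 0 in at least 1 library, with 1 point per library, low glutamine above control and a black bar at the mean (n = 3 per group). Tgfb1 and Bmp6 lie to the right in low glutamine, Smad7, Smad6 and Id4 to the right in control, and the Id3 values are interleaved.

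In all, 19 members fell below the limit, 3 of them listed at 0 throughout (Bmp5, Nog and Grem1). Of the 19, 9 lay wholly higher and 3 wholly lower in low glutamine, and 7 overlapped or were at 0. Some of the 9 rest on few reads, such as Tgfb3 (11 in low glutamine and 4 in control) and Inhba (17 in low glutamine and 1 in control). Among all 7764 rows below the limit and above 0 in some library, 38.4% did not overlap in either direction. That share leaves out rows at 0 throughout, which the 19 include, and it was not split by direction. With no limit at all, 48.8% of 18846 genes passed, 5697 as higher and 3499 as lower. That share also takes in the genes above the 1 RPKM limit, so it is no background for low rows alone. Of the 19, 7 passed as higher and 3 as lower by limma, and the 3 listed at 0 throughout were not in that fit.

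Further genes of the pathway, taken from lists that leave out the 42 members, were read from the same fit, and their counts stand beside 36.1% higher and 30.3% lower among all tested genes. Of those described below, 6 averaged under 1 RPKM in one group and met the limit only through the group where they are high: Bmp1, Bmp8b, Nbl1 and Tgfbi through low glutamine, and Gdf9 and Hamp2 through control. A gene that enters in this way had to differ, so the passes of these 6 and the counts that hold them are descriptions only. Of 23 genes listed as other ligands of the superfamily 4 were tested, 3 were higher and 1 lower, and 3 of the 4 are among those 6 genes. Bmp8b, a BMP ligand, averaged 2.37 ± 0.207 RPKM in low glutamine and 0.221 ± 0.0654 RPKM in control (1.46 ± 0.07, limma adjusted p = 3.9e-09). Its exons share 133 bases with Ppie on the opposite strand (23.8 RPKM in low glutamine and 16.4 RPKM in control). Bmp1, a metalloprotease that cleaves Chordin rather than a ligand, differed by 1.10 ± 0.07 (3.26 RPKM in low glutamine and 0.993 RPKM in control). Gdf9, known as an oocyte factor, averaged 0.491 ± 0.195 RPKM in low glutamine and 5.08 ± 0.290 RPKM in control (-2.03 ± 0.09, adjusted p = 1.1e-09).

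Genes that release TGF-beta from its latent store included the largest change among the tested genes of these lists. Thrombospondin 1 (Thbs1), a matrix protein known to activate latent TGF-beta, stood at 30.5, 29.9 and 32.4 RPKM in low glutamine and at 1.07, 1.12 and 1.26 RPKM in control. All low glutamine values lay far above all control values (ratio of the means 26.9), and it rose by 3.89 ± 0.06 (limma adjusted p = 8.8e-14). The integrin subunits Itgb6 and Itgav, which form a receptor that pulls TGF-beta out of its latent complex, rose by 1.20 ± 0.06 (7.79 RPKM in low glutamine and 2.83 RPKM in control) and 0.41 ± 0.05 (5.10 RPKM in low glutamine and 3.58 RPKM in control). Of 12 genes in this list 4 were tested, 3 were higher and 0 lower (75.0% called, against 66.4% of all tested genes, median 0.81), and Furin did not pass (17.3 RPKM in low glutamine and 18.5 RPKM in control); with median-of-ratios scaling 1 was lower.

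Of 22 intracellular regulators 21 were tested, 11 were higher and 1 lower (57.1% called, against 66.4% of all tested genes, median 0.13). The ubiquitin ligase Wwp1 rose by 0.69 ± 0.05 (16.7 RPKM in low glutamine and 10.01 RPKM in control), the corepressor Tgif1 by 0.61 ± 0.06 (22.2 RPKM in low glutamine and 14.2 RPKM in control) and the Smad4-binding Trim33 by 0.51 ± 0.06 (10.8 RPKM in low glutamine and 7.27 RPKM in control). The phosphatase Ppm1a was the lower one (-0.40 ± 0.05, 27.5 RPKM in low glutamine and 36.5 RPKM in control). The count of higher genes was 7 without low glutamine replicate 1, 7 without control replicate 2 and 6 with median-of-ratios scaling. With the common sum it was 15. Over all tested genes the higher calls were 3273 with median-of-ratios scaling and 5689 with the common sum, against 4001. The count of lower regulators was 2 without low glutamine replicate 3, without control replicate 3 or with median-of-ratios scaling.

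Other receptors and antagonists were few at these levels. Of 10 receptors and co-receptors 3 were tested. Neogenin (Neo1), the receptor that Rgmb and its relatives bind, fell by 0.41 on the log2 scale (24.1 ± 0.992 RPKM in low glutamine and 32.4 ± 0.304 RPKM in control, limma adjusted p = 1.9e-05). Tgfbrap1, a receptor-associated protein, fell by 0.21 (5.80 RPKM in low glutamine and 6.86 RPKM in control, adjusted p = 0.0067), though not with the common sum, and its adjusted p reached 0.12 over the alternatives. Fkbp1a, which binds type I receptors, did not pass (68.7 RPKM in low glutamine and 67.9 RPKM in control), but did as higher with the common sum or quantile normalization. Of 12 other antagonists 1 was tested, the BMP-binding Nbl1, which differed by 0.66 ± 0.07 (1.96 RPKM in low glutamine and 0.870 RPKM in control), and without control replicate 3 the count was 2. Fstl1 (1.53 RPKM in low glutamine and 0.199 RPKM in control) then entered through low glutamine, so that count is a description only.

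Known transcriptional targets of the pathways moved both ways. Of 23 found in the table, 10 were tested, 5 were higher and 4 lower (50% and 40% of the tested, against 36.1% and 30.3% of all tested genes, median 0.06). The count of higher targets was 9 with the limit at 0.3 RPKM, where 65.6% of all genes passed, and 3 with quantile normalization. At the 0.3 RPKM limit Ctgf, Msx1 and Snai2 entered only through low glutamine, where they are high. Their control means were 0.0470, 0.119 and 0.00927 RPKM, so the count of 9 is a description only. Cyr61, a matricellular protein that other pathways also induce, rose to 12.4 ± 0.147 RPKM in low glutamine, against 2.04 ± 0.358 RPKM in control (2.15 ± 0.08, limma adjusted p = 1.2e-10). Itgb6, also in the latent TGF-beta list, was another of those that rose, and Tgfbi, named for its induction by TGF-beta, differed by 0.73 ± 0.07 (2.19 RPKM in low glutamine and 0.927 RPKM in control). The cell cycle inhibitors Cdkn2b and Cdkn1a fell by 1.18 and 0.79 (3.66 RPKM in low glutamine and 9.60 RPKM in control for Cdkn2b, 47.6 RPKM in low glutamine and 83.0 RPKM in control for Cdkn1a). Hamp2, a hepcidin gene, differed by -1.71 (0.639 RPKM in low glutamine and 4.44 RPKM in control), and as hepcidin genes are near-identical copies its reads are uncertain. Bhlhe40 fell by 0.93 (32.3 RPKM in low glutamine and 62.4 RPKM in control).

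The labelled tissue was checked against its markers. Epithelial genes were abundant but moved both ways, with 4 of 10 markers higher and 6 lower (median -0.38), against 36.1% higher and 30.3% lower among all tested genes. The pan-epithelial Epcam stood at 490 ± 10.6 RPKM in low glutamine and 385 ± 14.3 RPKM in control, while Krt20, Cldn3, Cdx2, Vil1, Krt19 and Cldn7 fell, by 2.53 for Krt20, a keratin of differentiated cells. The 10 markers summed to 2751 to 2834 RPKM in low glutamine and 2384 to 2628 RPKM in control. Of the stromal markers, the usual source of BMP antagonists, 12 of 13 lay below 1 RPKM, and the remaining one, Vim, rose to 11.5 RPKM, against 3.29 RPKM in control. The summed stromal level was 10.9 to 12.9 RPKM in low glutamine and 3.27 to 4.03 RPKM in control, nearly all of it Vim, with Col3a1 and Lum listed at 0 throughout. Below the limit, Pdgfrb was lower without overlap (0.0739 RPKM in low glutamine and 0.271 RPKM in control). Col6a1 was higher without overlap (0.0164 RPKM in low glutamine and 0 in control). Of 9 immune markers 8 lay below the limit, with Ptprc listed at 0 in low glutamine, and the macrophage marker Cd68 averaged 2.0 RPKM in low glutamine and 0.685 RPKM in control, tested only through low glutamine (0.83, limma adjusted p = 1.0e-06). Itgam went the other way without overlap, at 0.230 RPKM in low glutamine and 0.783 RPKM in control. Lyz2 was lower on average with overlap (0.310 RPKM in low glutamine and 0.475 RPKM in control). All 7 endothelial markers lay below the limit as well, with Tie1 and Emcn at 0.

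Epithelial cell type markers differed between the groups as well, and their counts stand beside 36.1% higher and 30.3% lower among all tested genes. All 8 enteroendocrine markers rose (summed 1247 to 1418 RPKM in low glutamine and 259 to 263 RPKM in control), as did all 5 Paneth markers (1411 to 1560 RPKM in low glutamine and 1042 to 1074 RPKM in control) and all 6 stem cell markers (1372 to 1545 RPKM in low glutamine and 691 to 755 RPKM in control). All 6 goblet markers fell (447 to 523 RPKM in low glutamine and 957 to 1177 RPKM in control), and of 8 enterocyte markers 7 fell and Alpi rose (summed 219 to 249 RPKM in low glutamine and 2022 to 2203 RPKM in control). The goblet marker Clca1 and the enterocyte marker Lct averaged 0.925 and 0.368 RPKM in low glutamine, against 3.11 and 14.6 RPKM in control. Both met the limit only through control, where they are high, so their falls and the counts that hold them are descriptions only. The part of these cell types in the pathway values was not tested.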

How the data were processed

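Libraries were made from total RNA with TruSeq kits per the labels' protocols. The authors deposited RPKM values, 1 column per library. Named in the submitters' processing notes, with no roles given, are mm10 and the tools HISAT2 2.0.4, Partek and CASAVA 1.8. How reads were assigned to genes, with which gene models and whether by strand, was not given in the sources used here. RPKM are not counts, so no count test was run. Of the rows, 26 symbols had become dates.

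From the deposited RPKM, log2(RPKM + 1) was fitted with limma 3.58.1 in R 4.3.3, with a variance trend and no block. Tested were the 11082 genes whose mean reached 1 RPKM, and p-values were adjusted over all of them. Python 3.11.15 made the tables and plots. The fit was tested on simulated data. RPKM columns summed to 327956 to 370158. Depth was taken from the value of 1 read in genes with a single exon, where 84.2% to 87.9% of low values were whole reads within 0.02. Read numbers for 8 low members are those for which an annotated GENCODE transcript length gave whole reads in all 6 libraries. Intervals were not computed, and small read numbers carry counting error.

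The 42 members and the lists were chosen with earlier results of these data known. Named with full values were called members with an absolute log2 fold change of at least 0.5 and tested members with a mean of at least 10 RPKM. From each further list came the 3 called genes with the largest change, and a few more were named after their values were seen. The group numbers 1 to 3 are shared, and deviations from group means correlated at 0.15, 0.25 and 0.57 between same-numbered libraries, all above 0.1, so a fit with the number as a block was tried beside other pseudocounts, limits, scalings and the leaving out of each library. The crossed pair of low glutamine replicate 1 and control replicate 2 gave 0.36, so the pairing is uncertain.

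Coordinates are 1-based RefSeq gene bounds on GRCm38.p6. Exons of 13 members share bases with another GENCODE gene, 10 of them on the opposite strand (Bmp4, Bmp5, Bmp6, Tgfb2, Tgfb3, Bmpr1a, Acvr2a, Id4, Chrd and Fst). The same holds for Bmp8b, Itgav, Thbs1, Furin, Wwp1, Tgfbrap1, Cdkn1a, Bhlhe40, Hamp2, Ltbp3 and Ctgf. Without strand, such reads cannot be told apart.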

Additional observations from a re-analysis of the deposited data

How the results depend on the processing

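Of the 23 tested members, 14 kept their call in all 15 alternatives: Bmp2, Bmp3, Bmp7, Bmpr2, Acvr2a, Tgfbr2, Rgmb, Bambi, Smad5, Smad3, Smurf1, Id1, Id2 and Twsg1. Bambi met the 1 RPKM limit only through low glutamine, so its place among them is a description only. With the replicate block, the 23 members kept their calls (15 higher, 3 lower, median 0.26). Against 4001 higher and 3360 lower genes in the whole table, 6041 were higher with the common sum without Rn45s, an alternative chosen after seeing the data. The 3 members called lower became 6 of 39 tested with no filter on low values and 5 of 23 with median-of-ratios scaling. In the whole table the 3360 lower genes became 3499 of 18846 with no filter and 4495 with median-of-ratios scaling. The 20 higher genes of the 6 further lists together became 31 with no filter, while all higher calls went from 4001 of 11082 to 5697 of 18846. Both list counts hold Bmp1, Bmp8b, Nbl1 and Tgfbi, which met the 1 RPKM limit only through low glutamine. They are descriptions only. The members' median of 0.26 was 0.32 and 0.15 with pseudocounts of 0.1 and 5, 0.10 with no filter, 0.37 with the common sum, 0.39 with the same without Rn45s, 0.19 with median-of-ratios scaling and 0.16 with quantile normalization. Leaving out 1 library at a time gave 0.23 to 0.28. The sign turned for Acvr1 (0.05) and Smurf2 (0.06) with the common sum, and for both without Rn45s (0.07 and 0.08). It also turned for Acvr1b (-0.06) and Smad4 (-0.03) with median-of-ratios scaling. None of these 6 values passed the test. The cause was not tested. Depth limits the members below 1 RPKM, since a transcript of 1 kilobase at 1 RPKM rests on 24.4 to 35.4 reads per library.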

Other observations

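Several genes of the further pathway lists lay below the mean of 1 RPKM that the main test asks for, and are given as values only, chosen after their values were seen. Fstl1, a follistatin-like secreted protein, averaged 1.53 ± 0.0171 RPKM in low glutamine and 0.199 ± 0.0572 RPKM in control (SD, n = 3 each, as for the other genes here). Gdf11, an activin-type ligand, averaged 1.47 ± 0.171 RPKM in low glutamine and 0.343 ± 0.0177 RPKM in control. The integrin subunit Itgb8 and the latent TGF-beta binding protein Ltbp3 averaged 0.792 and 0.841 RPKM in low glutamine, against 0.0815 and 0.169 RPKM in control.

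Among the targets, the connective tissue growth factor gene Ctgf averaged 1.17 ± 0.247 RPKM in low glutamine and 0.0470 ± 0.0273 RPKM in control. The homeobox gene Msx1 averaged 1.49 ± 0.0751 RPKM in low glutamine and 0.119 ± 0.0533 RPKM in control, and Atoh8 averaged 1.29 ± 0.223 RPKM in low glutamine and 0.377 ± 0.0153 RPKM in control. Snai2, a repressor of epithelial genes, stood at 1.40, 1.24 and 1.27 RPKM in low glutamine, and at 0, 0.0278 and 0 RPKM in control. These 8 were picked for their high low glutamine values, so that their groups stand apart says nothing more. Of the 44 untested genes of these lists above 0 in some library, 17 lay wholly higher in low glutamine and 1 wholly lower, against 38.4% apart in either direction among all such rows. The lower one was Acvr1c, an activin-type receptor, with 0.636 ± 0.0432 RPKM in low glutamine and 0.889 ± 0.0312 RPKM in control.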
